A study of Mus musculus with 4 samples.

Results

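Protein uptake and the visceral endoderm were represented by 5 genes: Lrp2 (megalin), Cubn (cubilin), Amn (amnionless), Dab2 and Rhox5. Every array probe whose accession maps to one of them was taken, which gave 9 of the 41174 probes and 5 of the 18224 named genes, and all 5 were among the 13584 genes tested. The set was chosen by its signal in Jmjd3-/- against wild-type on these same arrays, so its genotype differences are a description, with no test. The study compared the posterior part of Jmjd3-/- and wild-type mouse embryos at E9.5, with 2 RNA samples per genotype, described as independent, each on 1 array. The Jmjd3-/- samples carry the label numbers 1 and 9 and the wild-type samples 3 and 4; pairs of values below keep that order. All embryos came from crosses between Jmjd3+/- mice and were staged by time and somite number. How the allele was made, the strain, and whether a sample is 1 embryo or a pool are not given in the sources used here. Spreads and p-values below therefore measure only the differences between RNA samples, which may be technical. The gene symbol for Jmjd3 is Kdm6b; its protein is a demethylase of histone H3 lysine 27.

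Megalin is a very large endocytic receptor of the LDL receptor family, and cubilin is a peripheral membrane protein that binds vitamin carriers, albumin and apolipoproteins. Cubilin has no membrane anchor of its own and reaches the apical surface bound to amnionless; the cytoplasmic adaptor Dab2 links such receptors to clathrin. In the embryo these proteins work in the visceral endoderm of the yolk sac, which takes up maternal protein, and megalin also acts in the neural tube and the kidney tubule. Rhox5, formerly Pem, is an X-linked homeobox gene known for expression in extraembryonic lineages and takes no part in uptake.

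The sequence upstream of the start site is shown for the 4 genes whose Jmjd3-/- arrays both lay above both wild-type arrays, because these promoters differ widely in CpG content, a feature that the choice of genes did not use. Each is the 250 bases before the RefSeq start on GRCm38.p6, 5′ to 3′ on the strand of the gene, with CpG dinucleotides in capitals. They lie at chr2:69586030-69586279 on the minus strand for Lrp2, chr2:13491877-13492126 on the minus strand for Cubn, chr12:111270846-111271095 on the plus strand for Amn and chrX:37754358-37754607 on the plus strand for Rhox5.
Lrp2: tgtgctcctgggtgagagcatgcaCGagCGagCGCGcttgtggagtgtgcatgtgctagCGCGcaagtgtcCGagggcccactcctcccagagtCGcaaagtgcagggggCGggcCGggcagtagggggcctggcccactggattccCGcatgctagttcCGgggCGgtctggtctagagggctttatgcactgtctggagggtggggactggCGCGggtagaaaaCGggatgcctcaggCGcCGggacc
Cubn: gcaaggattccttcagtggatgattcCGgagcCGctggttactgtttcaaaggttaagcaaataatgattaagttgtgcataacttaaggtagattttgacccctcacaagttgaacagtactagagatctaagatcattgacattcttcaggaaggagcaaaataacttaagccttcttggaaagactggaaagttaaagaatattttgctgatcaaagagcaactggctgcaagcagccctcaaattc
Amn: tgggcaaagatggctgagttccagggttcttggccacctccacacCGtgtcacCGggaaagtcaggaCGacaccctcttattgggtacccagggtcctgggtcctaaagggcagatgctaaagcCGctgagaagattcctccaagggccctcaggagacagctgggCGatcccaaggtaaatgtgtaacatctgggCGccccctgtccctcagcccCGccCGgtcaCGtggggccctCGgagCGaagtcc
Rhox5: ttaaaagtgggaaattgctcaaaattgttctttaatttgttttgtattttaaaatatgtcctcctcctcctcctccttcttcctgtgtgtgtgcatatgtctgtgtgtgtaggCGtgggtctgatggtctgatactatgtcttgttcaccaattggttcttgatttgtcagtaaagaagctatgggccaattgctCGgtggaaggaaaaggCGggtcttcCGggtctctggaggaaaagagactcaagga

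The Lrp2 window held 18 CpG dinucleotides and the Amn window 11, against 4 for Rhox5 and 2 for Cubn. Of 32841 promoter windows of this length, 78.3% held fewer CpGs than that of Lrp2, 64.4% fewer than that of Amn, 37.8% fewer than that of Rhox5 and 18.8% fewer than that of Cubn; the median window held 6. The 4 genes thus lay on both sides of the median. Dab2 has 2 annotated start sites, with 2 CpGs before one and 17 before the other. Short motifs were searched on both strands. The GATA factor word AGATAA occurs in 9.99% of all windows, and its variant TGATAA in 7.94%. The Hnf1 site word GTTAAT occurs in 6.43%, and the nuclear receptor word AGGTCA in 14.0%. None of these words occurred in the 4 windows shown. Dab2 had TGATAA 179 bases before its first start and, at the other start, GTTAAT 65 bases before it.

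Between 59.8% and 63.0% of probes stood well above background per array, and 0 were saturated. The check of the targeted gene rests on 1 Kdm6b probe, whose processed signal was 770 and 622 in the Jmjd3-/- samples against 2648 and 2940 in the wild-type arrays, a Jmjd3-/- mean of 25.7% of wild-type. The sources used here do not say whether that probe lies in the deleted part. Jmjd3-/- replicate 1 stood apart: it was over 2-fold from replicate 9 at 431 genes and from the wild-type arrays at 806 and 706, while replicate 9 was over 2-fold from them at 354 and 333. All arrays shared a slide, with the Jmjd3-/- arrays at its ends, so position and genotype cannot be told apart. By limma with Benjamini-Hochberg adjustment 5 genes passed an adjusted p of 0.05, 0.0368% of those tested, with 3 higher (0.0221%) and 2 lower (0.0147%) in Jmjd3-/-, and by the unadjusted p of 0.05 without overlap 1505 did (11.1%). None of the 5 genes followed here was among those past the adjusted threshold.

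Lrp2 had the largest difference of the set. Its normalised signal, that is log2 of the processed signal after subtracting the array's 75th percentile, was 0.57 and −0.03 in the Jmjd3-/- arrays, and −0.77 and −0.94 in the wild-type arrays. Both Jmjd3-/- arrays were above both wild-type arrays, with replicate 1 the higher. The distance between the nearest arrays of the genotypes, 0.74, exceeded the larger distance within a genotype, 0.60. Jmjd3-/- exceeded wild-type by 2.19-fold, which is 1.13 on the log2 scale (moderated SE 0.24, n = 2 per genotype).

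A second Lrp2 probe, A_51_P322000, gave −0.37 and −0.84 in the Jmjd3-/- arrays and −1.47 and −2.01 in the wild-type arrays on the same log2 scale. Its difference of 1.13 equalled that of the brighter probe, A_52_P285470, to 2 decimals, and its genotypes did not overlap either. Both probes read the same RNA samples and are not replicates of the genotype. The other 2 Lrp2 probes carried little signal. A_52_P460882 was well above background in Jmjd3-/- replicate 1 alone, with a processed signal of 20.5 against 7.08, 7.04 and 10.9 on the other arrays. A_51_P174921 was not well above background on any array, so neither gives a measured difference.

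Cubn was dimmer, with processed signals of 108 and 85.2 in the Jmjd3-/- arrays and 66.0 and 69.4 in the wild-type arrays, and its probe was well above background on every array. The normalised log2 signals were −2.48 and −2.76 in the Jmjd3-/- arrays and −3.18 and −3.17 in the wild-type arrays. The wild-type arrays almost coincided, and both Jmjd3-/- arrays were above them. The log2 difference was 0.56 (SE 0.12, n = 2 per genotype), or 1.47-fold. The nearest arrays of the genotypes were 0.41 apart and the Jmjd3-/- arrays 0.28 apart.

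Amn, which encodes the membrane anchor of cubilin, gave normalised log2 signals of −3.09 and −2.80 in the Jmjd3-/- arrays and −4.04 and −3.40 in the wild-type arrays. Here replicate 9 was the higher Jmjd3-/- array, unlike for Lrp2, Cubn and Rhox5. The genotypes did not overlap, but their nearest arrays were 0.31 apart while the wild-type arrays were 0.65 apart. The log2 difference was 0.78 (SE 0.27, n = 2 per genotype), or 1.72-fold, and it was 0.46 without wild-type replicate 3. Amn had processed signals between 36.3 and 83.1, and with normexp background correction and quantile normalisation its difference was 0.38.

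Dab2, the clathrin adaptor, did not separate the genotypes. Its brighter probe gave 0.12 and 0.40 in the Jmjd3-/- arrays and 0.33 and 0.18 in the wild-type arrays, so the wild-type arrays lay between the Jmjd3-/- arrays. The log2 difference was 0.0040 (SE 0.13, n = 2 per genotype), and its sign changed between scalings. The dimmer Dab2 probe, A_52_P17534, gave −4.78 and −4.09 against −4.48 and −4.30, a difference of −0.04. The wild-type arrays again lay between the Jmjd3-/- arrays, but in the reverse order to each other.

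Rhox5 was well above background on every array, with processed signals of 2762 and 1783 in the Jmjd3-/- arrays and 1630 and 1366 in the wild-type arrays. Its normalised log2 signals were 2.20 and 1.63 in the Jmjd3-/- arrays and 1.45 and 1.12 in the wild-type arrays. The Jmjd3-/- arrays were above the wild-type arrays, replicate 9 by 0.18 over wild-type replicate 3, less than the 0.57 between the Jmjd3-/- arrays. The log2 difference was 0.63 (SE 0.25, n = 2 per genotype), or 1.54-fold, and 0.34 without Jmjd3-/- replicate 1.

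**Figure D1:**
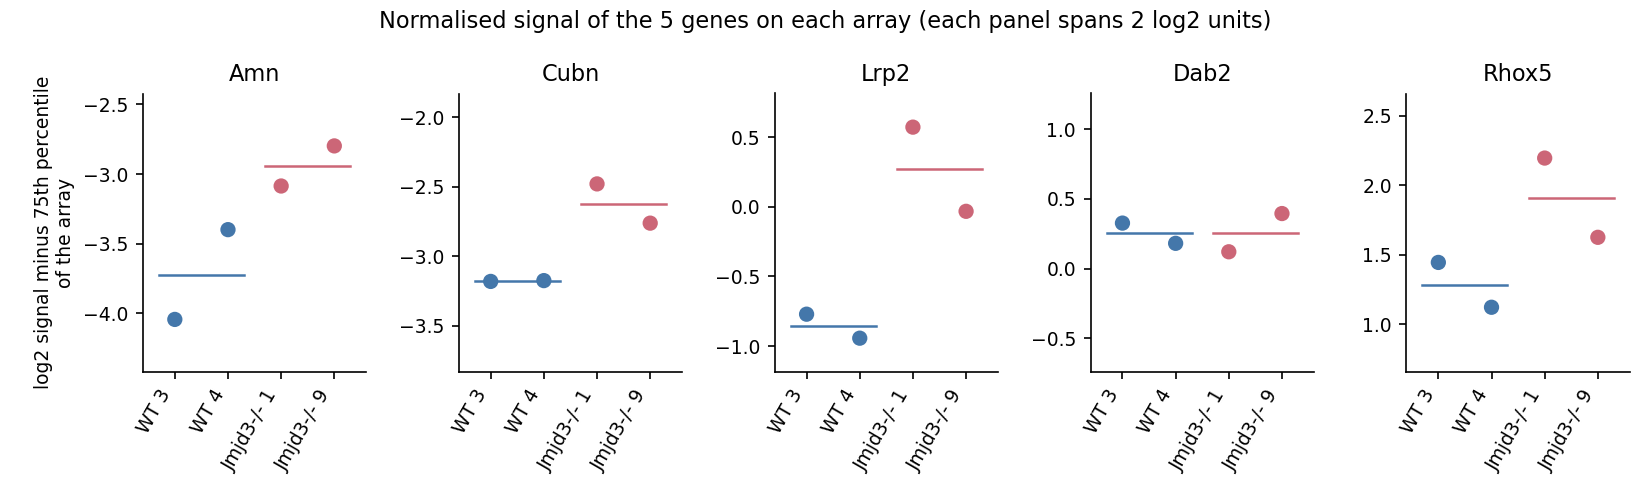
Normalised log2 signal (vertical axis, each panel spanning 2 units) of the 5 genes on the wild-type arrays (blue) and the Jmjd3-/- arrays (red), with the mean of each genotype as a line. The red points lie above the blue points for Amn, Cubn, Lrp2 and Rhox5, and for Dab2 the blue points lie between the red points.

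**Figure D2:**
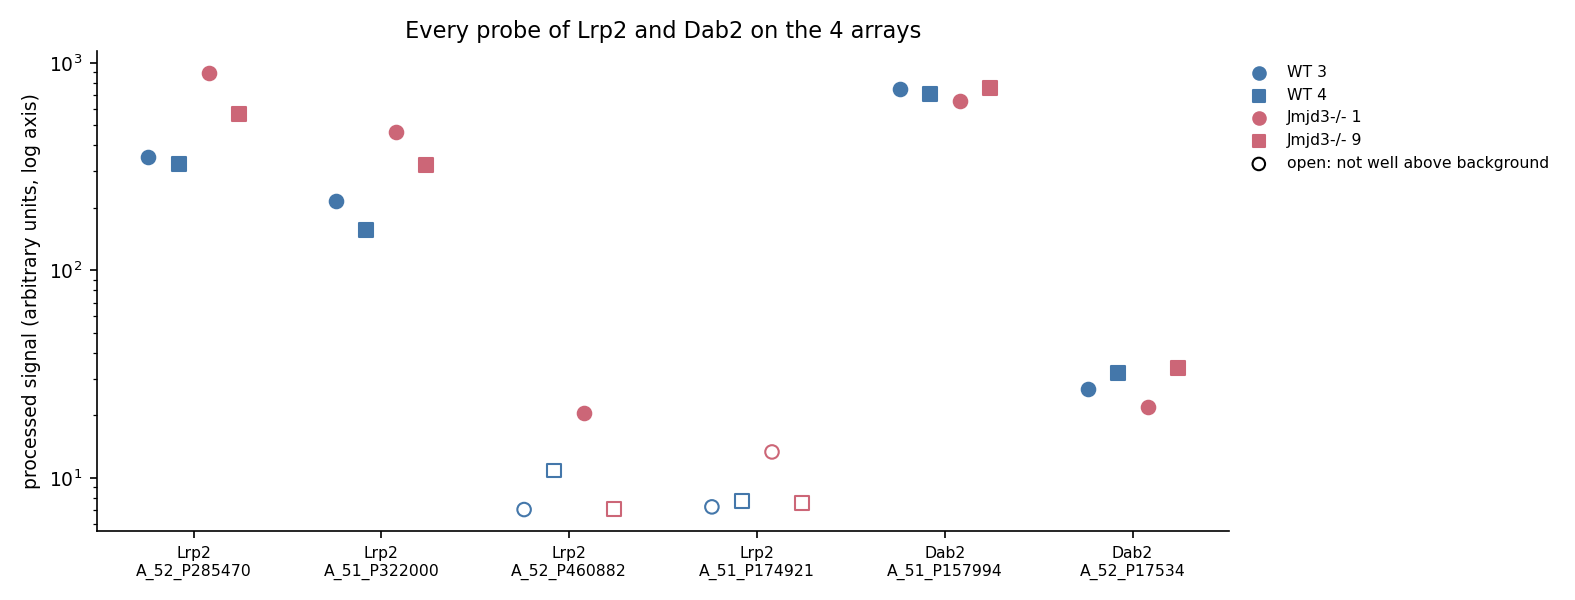
Processed signal in arbitrary units (log axis) of all 4 Lrp2 probes and both Dab2 probes, with 1 symbol per array and open symbols where the probe was not well above background. The 2 bright Lrp2 probes show the same arrangement of arrays, and the 2 dim ones have 1 filled symbol, 20.5 in Jmjd3-/- replicate 1.

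Over the 5 genes, 4 had both Jmjd3-/- arrays above both wild-type arrays. Of all genes tested, 23.0% did so, 23.7% had both Jmjd3-/- arrays below, and 46.8% were separated in one direction or the other; the choice of the 5 genes used this contrast, so nothing is read from the comparison. The median log2 difference of the 5 genes was 0.63, and that of all genes was −0.01, with a median size of 0.12. Lrp2 lay above 99.3% of tested genes in signed difference, Amn above 98.5%, Rhox5 above 97.6%, Cubn above 97.1% and Dab2 above 54.2%. The distribution plot shows these places. Jmjd3-/- replicate 1 was the highest of the 4 arrays for Lrp2, Cubn and Rhox5.

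**Figure D3:**
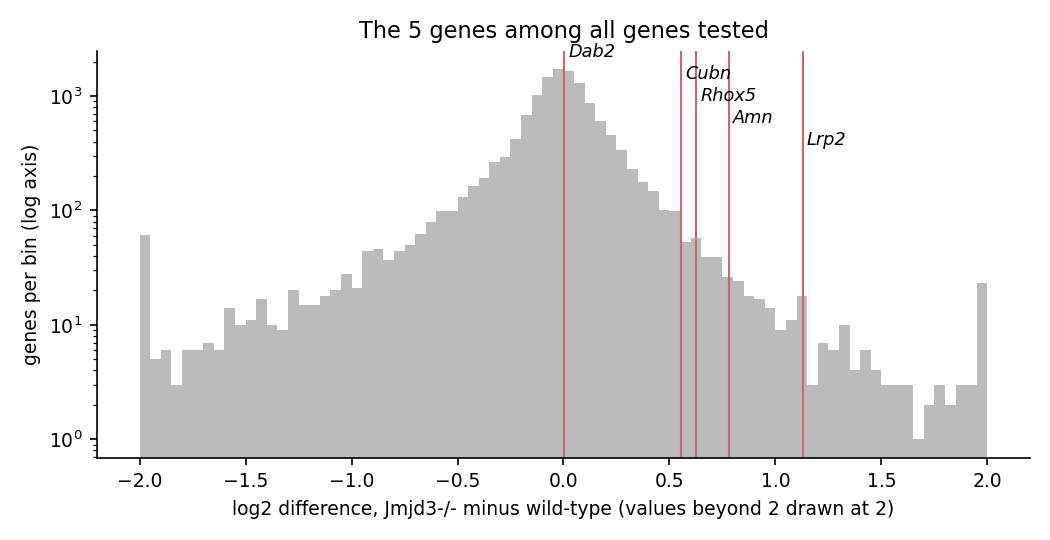
Number of genes (log axis) by log2 difference, Jmjd3-/- minus wild-type, in bins of 0.05 over all 13584 genes tested, with the 5 genes as red lines and values beyond 2 drawn at the ends. Dab2 sits at the centre, Cubn, Rhox5 and Amn between 0.56 and 0.78, and Lrp2 at 1.13.

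The genes whose 4 values ran closest to a member were found by the distance between values centred on each gene's own mean, for members that spanned more than 1 log2 unit. For Lrp2 these were Rhpn2 (distance 0.11), the carboxypeptidase gene Cpb1 (0.11) and Cd300e (0.14). Those nearest to Rhox5 were Dock8 (0.09), Cyp26a1 (0.09), which encodes an enzyme that breaks down retinoic acid, and Fah (0.10). Amn had Cfap52 (0.18), Pop1 (0.20) and Olfr32 (0.26). Among the members the closest pair was Cubn and Rhox5 (0.32), Lrp2 was nearest to Rhox5 (0.51), and Amn was 0.65 from Cubn and 0.92 from Lrp2. Cubn and Dab2 spanned 0.70 and 0.27 and were not matched. With 4 arrays such distances describe these samples only.

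Genes around the receptors were counted by a lenient rule, an unadjusted limma p of 0.05 with no overlap of the genotypes, which 5.15% of all genes met as higher and 5.93% as lower in Jmjd3-/-. Over the 16 lists, 41 of 188 tested genes met it, of which 18 were higher and 23 lower in Jmjd3-/-. None of the 188 was past the limma threshold after adjustment. The list counts moved with the whole table when 1 array was left out. Without wild-type replicate 4, 17 list genes met the rule, and 1.91% of all genes were higher and 3.05% lower. With wild-type replicate 3 left out it was 25, beside 1.88% and 2.85%. Leaving out Jmjd3-/- replicate 9 gave 73, beside 12.9% and 17%, and leaving out replicate 1 gave 51, beside 5.97% and 8.32%. Counts below for such settings are to be read against these shares. Adjusted p-values below are limma's, over the whole table.

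Partners and adaptors of megalin and cubilin had a median log2 difference of −0.06 over 15 of 16 genes tested; 1 was higher and 1 lower by the lenient rule, against 1 and 5 without Jmjd3-/- replicate 9, and 0 and 1 without either Jmjd3-/- replicate 1 or wild-type replicate 4. The partner median was 0.02 when Jmjd3-/- replicate 1 was left out and −0.22 when replicate 9 was. The folate receptor gene Folr1 gave −1.31 and −1.45 in the Jmjd3-/- arrays and −1.71 and −1.91 in the wild-type arrays, a difference of 0.43 (SE 0.11, adjusted p = 0.370), with 0.06 for its dimmer probe. Over the 12 settings run, arrays left out included, the Folr1 difference was between 0.25 and 0.54, and Folr1 met the lenient rule in 10. The 12 settings, here and below, include the main run. Several others reuse the same values for a gene without marked spots, so the settings are not independent checks. Pth1r, the parathyroid hormone receptor gene, gave 1.85 and 2.02 against 2.62 and 2.53, a difference of −0.64 (SE 0.10, adjusted p = 0.290). Its genotypes did not overlap. The chaperone gene of megalin, Lrpap1, singled out with its values known, differed by −0.10. Cblif, which encodes intrinsic factor, the cubilin ligand of the gut, was not well above background on any array.

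Other members of the LDL receptor family and sorting receptors had a median log2 difference of −0.02 over 12 tested genes, with 3 higher and 0 lower by the lenient rule. Lrp4, a receptor that tempers Wnt signalling, gave 0.33 and 0.17 in the Jmjd3-/- arrays and −0.44 and −0.22 in the wild-type arrays, a difference of 0.58 (SE 0.12, adjusted p = 0.335). Lrp1, a broad endocytic receptor, differed by 0.52 (SE 0.16, adjusted p = 0.410), and the sorting receptor gene Sort1 by 0.34 (SE 0.07, adjusted p = 0.335). The 3 dimmer Sort1 probes differed by between −0.06 and 0.01, so its probes do not share the difference. Across the 12 settings Lrp4 was between 0.28 and 0.69, Lrp1 between 0.32 and 0.72 and Sort1 between 0.08 and 0.37, and these met the rule in 10, 10 and 9 of them. Without wild-type replicate 3 none of the 12 met the rule, without wild-type replicate 4 only 1 did, and without Jmjd3-/- replicate 9 there were 4 higher and 1 lower.

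Genes of the general machinery that carries receptors inward were counted next. Clathrin, AP-2 and early endosome genes, 24 in all, had a median of 0.02, with 0 higher and 1 lower by the lenient rule, the endosomal adaptor gene Appl1 at −0.23 (SE 0.07, adjusted p = 0.414), whose other probe gave −0.03. Appl1 met the rule in 6 of 12 settings. Cltb, a clathrin light chain gene, gave −4.35 and −3.64 in the Jmjd3-/- arrays and −3.35 and −3.29 in the wild-type arrays, a difference of −0.68 (SE 0.27, adjusted p = 0.479), with no overlap, and met the rule in 2 of 12. Lower genes by the rule numbered 4 when Jmjd3-/- replicate 9 was left out, where 17% of all genes were lower, and 2 when replicate 1 was, where 8.32% were. With either wild-type array left out there were 0 by the limma rule. The 15 lysosome genes had a median of 0.00083, and 0 met the rule in either direction; without Jmjd3-/- replicate 9, 1 was higher and 1 lower. The cholesterol exporter gene Npc1 differed by 0.27 (SE 0.10) and the protease gene Ctsb by −0.35 (SE 0.15), with 0.05 for a second Ctsb probe. The lysosome median lay between −0.06 and 0.08 with single arrays left out.

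Genes of ligands that these receptors carry had a median log2 difference of −0.35 over 14 genes, with 3 positive and 11 negative values, and 0 higher and 2 lower by the lenient rule. Without either wild-type array 1 was lower, without Jmjd3-/- replicate 1 it was 1 higher and 3 lower, and without Jmjd3-/- replicate 9 it was 2 higher and 4 lower; with normexp 0 met the rule and the median was −0.10. Ttr, the thyroxine carrier, was well above background in wild-type alone. Its fitted log2 difference was −0.60 (SE 0.19, adjusted p = 0.418), or 1.52-fold lower in Jmjd3-/-. Over the 11 settings that tested Ttr it was between −0.78 and −0.14. Where a fold below is given as at least a value, the arrays of the dim genotype were raised to a floor. The floor is the lowest signal well above background, and a probe's own signal is kept where higher. For Ttr its own signals were the higher, so no bound is given. Such a bound allows for the floor and not for the spread between samples. Alb, the albumin gene, chosen after its values were seen, had processed signals of 15990 and 3.64 in the Jmjd3-/- arrays and 121 and 71.2 in wild-type. The Alb spot of replicate 1 was marked by the scanner software as non-uniform, so no difference is printed for Alb. It still counts among the positive ligands and in the ligand median. With marked spots left out 13 ligands were tested, with 2 positive and 11 negative values and a median of −0.35. The 2 lower ligands, Ttr and Scgb1a1, were tested only because both wild-type arrays were well above background. With every array required to be well above background, 10 ligands were tested and 0 met the rule. Their median was −0.23, with 2 positive and 8 negative values.

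Other markers of the visceral endoderm and yolk sac endoderm moved in both directions. Of 36 markers 35 were on the array and 31 were tested. Differences were positive for 12 and negative for 19, with a median of −0.11, and 6 were higher and 10 lower by the lenient rule. With marked spots left out, that of Alb among them, 30 were tested. These had 11 positive and 19 negative differences and a median of −0.15. With every array required to be well above background, 26 were tested, with 6 higher and 8 lower by the lenient rule. S100g, a calcium-binding protein gene, gave −2.37 and −3.13 in the Jmjd3-/- arrays and −5.26 and −4.72 in the wild-type arrays, a difference of 2.24 (SE 0.34, adjusted p = 0.290). Spink1, which encodes a protease inhibitor, differed by 0.85 (SE 0.14, adjusted p = 0.315). The genotypes did not overlap for either gene. Both met the rule in all 12 settings, with S100g between 0.87 and 2.62.

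Among the 4 markers of the list named by smallest p, Afp and Fgb were lower. Whether these transcripts came from visceral endoderm or from another tissue, such as the liver bud, was not tested. Afp, alpha-fetoprotein, gave 2.78 and 2.51 in the Jmjd3-/- arrays and 4.17 and 3.64 in the wild-type arrays, a difference of −1.26 (SE 0.23, adjusted p = 0.329). Fgb, a fibrinogen chain, differed by −2.08 (SE 0.40, adjusted p = 0.330). Afp and Fgb met the rule in all 12 settings. The visceral endoderm median was −0.27, with 8 positive and 23 negative differences, when Jmjd3-/- replicate 1 was left out, and 0.01, with 16 and 15, when replicate 9 was. The visceral endoderm counts were 3 higher and 6 lower without wild-type replicate 3, and 2 higher and 6 lower without wild-type replicate 4. The summed processed signal of the list, in multiples of the 75th percentile and without the 2 genes with marked spots, was 58.1 and 46.7 in the Jmjd3-/- arrays and 55.9 and 50.5 in the wild-type arrays, so the genotypes overlapped. Such a sum, here and below, follows the brightest genes of a list and does not measure tissue content. The markers Fga, Npc1l1 and Slc2a2 were not well above background on any array. In RNA from whole tissue, more cells of a type and more RNA per cell cannot be told apart, and the part of visceral endoderm cells in the values of the 5 genes was not tested.

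Megalin and its partners are also known from kidney, neural and gut epithelium, so those markers were set beside them. For 13 tested genes of the nephric lineage and intermediate mesoderm the median was 0.09, with 3 higher and 2 lower by the lenient rule. Lhx1, a transcription factor gene of that lineage, had an outlier mark on 1 spot of 1 wild-type array. It gave 0.02 and −0.52 in the Jmjd3-/- arrays against −1.42 and −1.33 in the wild-type arrays. The Lhx1 difference was 1.12 (SE 0.21, limma adjusted p = 0.329), and Sall1 differed by 0.98 (SE 0.21, limma adjusted p = 0.335). Lhx1 met the rule in all 12 settings, including the one without marked spots. The kidney markers Ret, on all 4 arrays, and Gfra1, on both Jmjd3-/- arrays, were not well above background. Gfra1 was at least 1.46-fold lower in Jmjd3-/- (adjusted p = 0.307 for the fitted difference). Over the 11 settings that tested Gfra1 its log2 difference was between −1.24 and −0.17. Without Jmjd3-/- replicate 9 the nephric counts were 5 higher and 4 lower, and without wild-type replicate 3 they were 2 higher and 1 lower. The summed signal of the 17 nephric genes was 17.7 and 24.1 in the Jmjd3-/- arrays and 27.2 and 15.0 in the wild-type arrays. Wfdc2 gave 2.13 and 3.58 against 4.00 and 1.87 on the log2 scale and carried much of the movement of that sum.

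The 19 gut endoderm and epithelial genes had a median of 0.09, with 4 higher and 2 lower by the lenient rule. They were led by Cdx2, a caudal gene of hindgut and tail bud, at 1.45 (SE 0.23, adjusted p = 0.296), with Gata6 at −0.53 (SE 0.13, adjusted p = 0.365). Without wild-type replicate 3 the gut counts were 2 higher and 0 lower, without wild-type replicate 4 they were 1 and 1, and without Jmjd3-/- replicate 1 they were 5 and 4. The summed gut signal was 159 and 190 in the Jmjd3-/- arrays and 155 and 123 in the wild-type arrays. Most of that sum came from the keratin genes Krt18 and Krt8. On the log2 scale Krt18 gave 6.32 and 6.58 against 6.25 and 5.93, and Krt8 gave 5.56 and 5.98 against 5.69 and 5.20. The 11 neural progenitor genes had a median of −0.31, with 0 higher and 1 lower, Pax7 at −0.76 (SE 0.14, adjusted p = 0.329); 6 were lower without Jmjd3-/- replicate 9 and 2 without replicate 1. The neural median was −0.04 when replicate 1 was left out and −0.57 when replicate 9 was. Olig2, a ventral progenitor factor gene, gave −2.30 and −0.56 in the Jmjd3-/- arrays and −0.46 and −0.35 in the wild-type arrays. Dbx1 gave −2.44 and 0.84 against 0.87 and 1.01, so replicate 1 alone was far from the other arrays for both. The summed neural signal was 15.2 and 20.9 against 20.1 and 21.0. Pax7 met the rule in all 12 settings, with differences from −0.93 to −0.26. Whether any of these tissues contributed to the values of the 5 genes was not tested.

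Dab2 is also known from macrophages and vessels. The 14 endothelial genes had a median of −0.15, with 0 higher and 3 lower by the lenient rule, and Clec14a differed by −0.59 (SE 0.12, adjusted p = 0.335). Clec14a was between −0.73 and −0.20 over the settings and met the rule in 9 of 12. Without wild-type replicate 4 none was lower, without wild-type replicate 3 it was 1, without Jmjd3-/- replicate 1 it was 5, and without Jmjd3-/- replicate 9 it was 3 with 2 higher. The summed endothelial signal was 38.0 and 40.8 in the Jmjd3-/- arrays and 45.1 and 47.7 in the wild-type arrays. Of 12 macrophage genes on the array 5 were tested and 6, among them Spi1, Ptprc and Aif1, were not well above background anywhere. The macrophage median was −0.33, with 0 higher and 1 lower by the rule, Tyrobp, at least 1.75-fold lower in Jmjd3-/- (adjusted p = 0.355 for the fitted difference); without wild-type replicate 4 none met it, and without Jmjd3-/- replicate 1 there were 2 lower and without replicate 9 there were 1 higher and 1 lower. Over the 11 settings that tested Tyrobp its log2 difference was between −1.88 and −0.30. Tyrobp and Laptm5 were tested only because both wild-type arrays were well above background. With every array required to be well above background, 3 macrophage genes were tested, with a median of −0.06. Of the 5, 1 was positive and 4 negative. The positive gene, Csf1r, differed by 0.80 (SE 0.58) with overlap, and a dimmer probe gave −0.37. Adgre1, not tested, was well above background in Jmjd3-/- replicate 1 alone. The summed macrophage signal was 0.604 and 0.387 against 0.489 and 0.539. Dab2 itself did not separate the genotypes, as given above.

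Parietal endoderm genes, from the other extraembryonic endoderm layer, 12 in all, had a median of 0.04, with 2 higher and 2 lower by the lenient rule. Thbd, thrombomodulin, differed by −0.48 (SE 0.11, adjusted p = 0.335) and the laminin gene Lamb1 by 0.38 (SE 0.10, adjusted p = 0.377). Leaving out Jmjd3-/- replicate 9 gave 4 higher and 4 lower, leaving out wild-type replicate 3 gave 0 and 2, and leaving out wild-type replicate 4 gave 0 and 1. Their summed signal was 36.8 and 43.6 in the Jmjd3-/- arrays and 40.6 and 39.2 in the wild-type arrays. Of 10 trophoblast and placenta genes on the array 7 were tested, with a median of −0.11, 0 higher and 1 lower by the rule, Tfap2c at −1.05 (SE 0.35, adjusted p = 0.432). The trophoblast median was 0.14 when Jmjd3-/- replicate 1 was left out and −0.28 when replicate 9 was. Krt7, the brightest trophoblast gene, gave 2.88 and 3.55 in the Jmjd3-/- arrays and 3.41 and 3.25 in the wild-type arrays. Eomes, Gcm1 and Tpbpa were not well above background on any array. The summed trophoblast signal was 11.3 and 17.4 in the Jmjd3-/- arrays and 16.7 and 14.3 in the wild-type arrays; without either Jmjd3-/- array 2 were lower, without wild-type replicate 3 it was 1 higher, and without wild-type replicate 4 none.

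**Figure D4:**
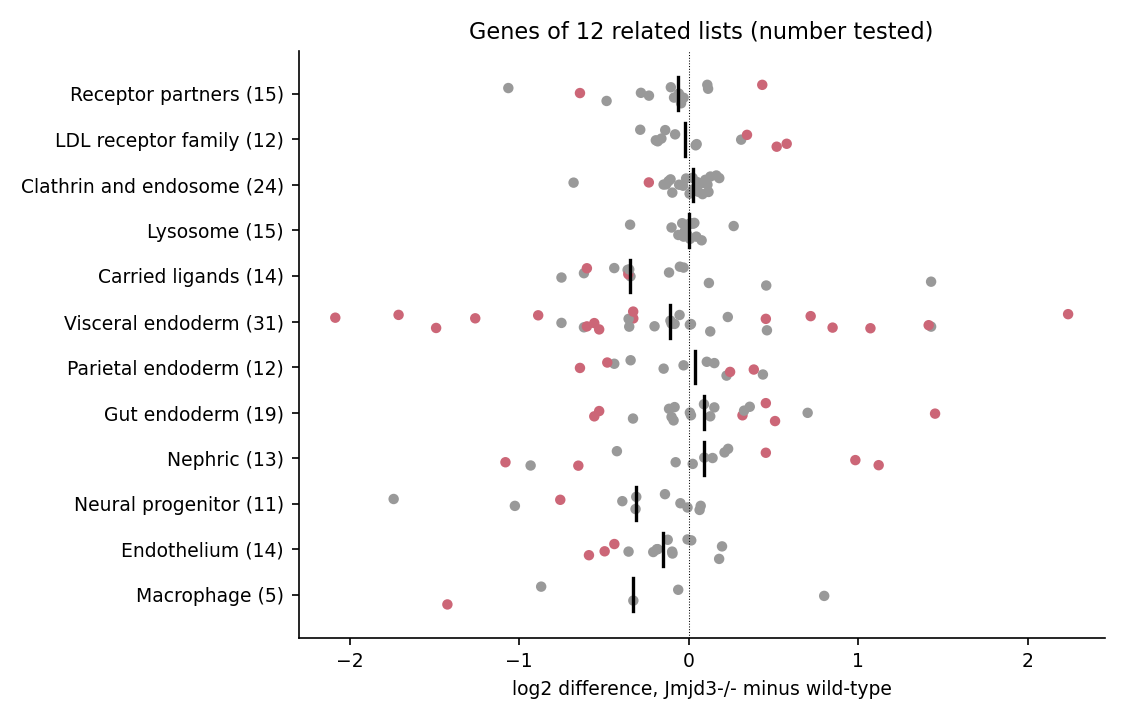
Log2 difference, Jmjd3-/- minus wild-type, of each tested gene (points) in 12 related lists, without the 5 genes themselves, with the list median as a bar and genes that met the lenient rule in red. The medians lie between −0.35 for carried ligands and 0.09 for gut endoderm and nephric genes, and the visceral endoderm list has 6 red points above 0 and 10 below.

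Rhox5 was read beside the rest of its X-linked cluster. Of 15 other Rhox genes 6 were on the array and 3 were tested, and all 3 had both Jmjd3-/- arrays above both wild-type arrays. Of all genes tested 23.0% did so, and 3 genes are too few to describe the cluster. Rhox6 gave −1.75 and −2.31 in the Jmjd3-/- arrays and −2.90 and −3.99 in the wild-type arrays. Its log2 difference was 1.42 (SE 0.45, adjusted p = 0.420), and the wild-type arrays were the more spread. Rhox9 gave −1.79 and −1.92 against −2.13 and −3.41, a difference of 0.91 (SE 0.47, adjusted p = 0.553) that was 0.27 without wild-type replicate 4. Rhox4e gave 0.46 and 0.51 against 0.36 and 0.27, a difference of 0.17 (SE 0.08, adjusted p = 0.524).

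The median of the 3 was 0.91, and it was 1.56 when wild-type replicate 3 was left out and 0.27 when wild-type replicate 4 was. By the lenient rule 1 of the 3, Rhox6, was higher; 0 met it without either Jmjd3-/- array or without wild-type replicate 4, and 2 did without wild-type replicate 3. Rhox genes arose by duplication, and cross-hybridisation between their probes was not tested. Of 8 sex-linked genes 4 were tested, with a median of 0.04 and 0 past the lenient limma rule, against 1 lower without Jmjd3-/- replicate 1 and 1 higher without replicate 9. The Y-linked genes Ddx3y, Eif2s3y, Kdm5d and Uty were not well above background on any array. Xist, the X-inactivation transcript, gave 2.92 and 1.82 in the Jmjd3-/- arrays and 2.10 and 2.18 in the wild-type arrays, so the genotypes overlapped. Its highest value was in Jmjd3-/- replicate 1, which was also the highest array for Rhox5; the part of this in the Rhox5 values was not tested.

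**Figure D5:**
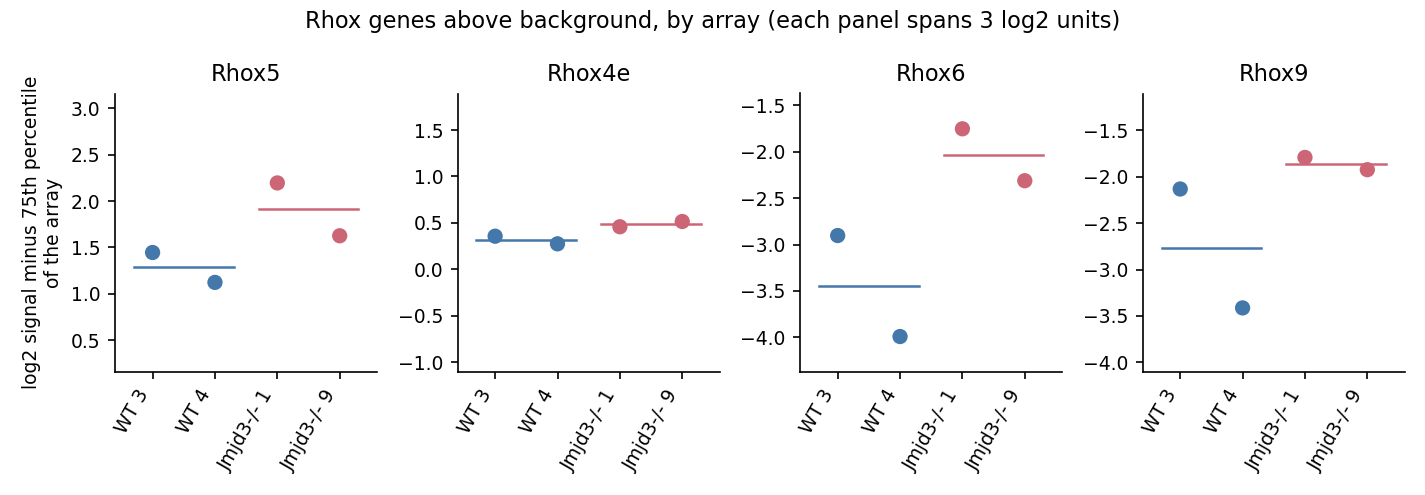
Normalised log2 signal (vertical axis, each panel spanning 3 units) of the 4 Rhox genes above background on the wild-type (blue) and Jmjd3-/- arrays (red), with genotype means as lines. Red points lie above blue points in every panel, by least for Rhox4e (0.17 between means) and by most for Rhox6 (1.42).

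Of H3K27 demethylase and PRC2 genes, 9 were tested, with a median log2 difference of 0.0094 and 0 higher and 1 lower by the lenient rule, Kdm6b itself at −1.96 (SE 0.12, adjusted p = 0.149); without Jmjd3-/- replicate 9 there were 1 higher and 2 lower. The X-linked demethylase gene Kdm6a differed by −0.04 (SE 0.12, adjusted p = 0.930), and its arrays overlapped.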

How the data were processed

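Cy3-labelled cRNA from 4 RNA samples was hybridised to 1-colour Agilent arrays, 1 per sample. Spot intensity (arbitrary units) was deposited as written by Agilent Feature Extraction 10.7.3.1, per the submitters' processing notes; per the file headers this intensity had its background subtracted, with no scaling between arrays. A deposited table of log2 values has no stated scale. Its columns matched the log2 processed signal less the array's 75th percentile and the wild-type mean, with r of 0.995 to 0.998 across probes and 99.9% of probes within 0.01, and had medians of −0.02, 0.05, 0.02 and −0.02 in sample order (1, 9, 3, 4). Its scale, centring and direction were inferred from that match.

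Control spots (1639 of 45018) were left out, spots of a probe averaged and the 75th percentile subtracted. The RefSeq gene table of GRCm38.p6 named 26690 probes by accession and 28 by synonym, and 14456 stayed unnamed. The brightest probe stood for a gene, and genes well above background on both arrays of a genotype were tested by lmFit and eBayes (limma 3.58.1, R 4.3.3). The script was tested on simulated data. The number of arrays limits the precision. The members and gene lists were chosen with earlier results of these data known. The text names the members, the label-check gene, sex-linked genes, up to 4 genes of each list by p, and the 3 nearest genes of members spanning over 1. Lrpap1, Alb, Wfdc2, Krt18, Krt8, Krt7 and Adgre1 were named outside that rule, with their values known. Some genes not well above background on any array were also named outside it. The planned normexp alternative used the median spot signal, since the files hold no mean signal.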

Additional observations from a re-analysis of the deposited data

How the results depend on the processing

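No paired analysis was possible because the genotypes share no replicate number. The 5 genes had 35 differences under 7 processing alternatives. Of these 31 stayed within the replicate SD, 2 moved and 2, both of Dab2, changed sign. Much of that count was fixed in advance. The changes of filter, the removal of marked spots and the deposited table reuse the same probe values for these genes. Averaging probes also leaves Amn, Cubn and Rhox5, with 1 probe each, as they were. Amn was 0.38 with normexp, and Lrp2 was 0.81 with the mean of its probes, 2 of which carry little signal. Dab2 was −0.013 with median scaling and −0.020 with the mean of its probes. With arrays left out in turn, Lrp2 ranged from 0.83 to 1.43, Cubn from 0.42 to 0.70, Amn from 0.46 to 1.10, Rhox5 from 0.34 to 0.91 and Dab2 from −0.13 to 0.14 (−0.07 without wild-type replicate 4).

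Genes called after adjustment, 5 in the report, numbered 1 with normexp and 3 when probes of a gene were averaged. By limma they were 0 when dim genes were kept (1621 met the unadjusted rule) and 0 when every array had to be above background (1415 met it). Without Jmjd3-/- replicate 9 they were 167; without any other array they were 0. The lone array is then assumed to vary like the other genotype. With arrays left out, the lenient rule took 643 to 4057 of all genes and 17 to 73 of the list genes, of which 0 to 4 passed after adjustment. The causes were not tested. Of 112 list medians under the processing alternatives, 109 stayed within the spread between replicates and 3 moved. Leaving out single arrays turned the sign of the median for the partner, clathrin, lysosome, visceral endoderm, parietal endoderm, trophoblast and sex-linked lists, and moved that of carried ligands from −0.35 to between −0.25 and −0.16 and of macrophage genes from −0.33 to between −0.45 and −0.18. Signal near background left 2 of the Lrp2 probes without a measured difference.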
